A study of Mus musculus with 10 samples.

Results

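Phosphoinositide 3-kinase (PI3K) signalling was followed through 8 genes in cultured mouse splenic NK cells (NKC) with and without the transcription factor Runx3: the catalytic subunit genes Pik3ca, Pik3cd and Pik3cg, the regulatory subunit genes Pik3r1 and Pik3r5, the PI3K inhibitor gene Pik3ip1, and the phosphatase genes Inpp4b and Inpp5d. The genes were chosen by name, and every probe set that carried one of these symbols alone was taken, which gave 25 probe sets. A gene was represented by its probe set with the highest mean over all 10 arrays. All 8 genes reached log2 5 in at least 2 arrays and were tested, among 9391 genes tested of 18194 on the array, while 21 of the 25 probe sets did so. Spleen NKC of ICR mice of 6 weeks, labelled as male or female, were enriched by negative selection, sorted for the surface antigen DX5 by the study's methods, and grown for 7 days in 1000 units per ml of recombinant human IL-2 or in mouse IL-15. The 4 groups were Runx3+/+ (WT) in IL-2 with 3 arrays, Runx3-/- in IL-2 with 3 arrays, WT in IL-15 with 2 arrays and Runx3-/- in IL-15 with 2 arrays. The series text gives separate mice as the source of the cells, and the Runx3 deletion was not restricted to NKC in the labels.

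PI3K is a lipid kinase made of a catalytic p110 protein and a regulatory protein. It turns a membrane phosphoinositide into PIP3, which recruits AKT, TEC family kinases and guanine nucleotide exchange factors to the membrane. Lipid phosphatases remove phosphates from PIP3 and its products and so end or redirect the signal. In NKC the receptors for IL-2 and IL-15 and several activating receptors signal through PI3K, and SHIP1, the protein of Inpp5d, docks to inhibitory receptors.

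The values were log2 signals after GC-RMA normalization. Same-numbered WT and Runx3-/- arrays had equal sums at every probe set, to within 0.00014 in IL-2 and 0.00013 in IL-15, so that WT and Runx3-/- arrays mirrored each other around 1 mean per cytokine. The differences between pairs had therefore been taken out before deposit, and the WT and Runx3-/- comparison was made over pairs, with 3 residual degrees of freedom. The spread behind a comparison of IL-15 with IL-2 was smaller than that of unadjusted arrays by an unknown amount, and its p-values were too small. Xist is the RNA of the inactive X chromosome of female cells. It was at 14.3 to 14.7 in the IL-15 arrays and 4.64 to 5.37 in the IL-2 arrays. This difference, and with it the sex of the mice, cannot be told apart from the cytokine. Runx3 itself stood at 11.31 to 12.06 in WT and 10.66 to 11.41 in Runx3-/- arrays in IL-2, and at 12.45 to 12.51 against 11.35 to 11.41 with IL-15. It (limma, adjusted p = 0.254 for the IL-2 arrays and 0.293 for the IL-15 arrays) gave no check of the genotype, since where its probe set lies against the deleted part was not known. Of 12 NKC markers 11 reached log2 5 in each array, and Itga2, which encodes the DX5 antigen, was below it in all of them. All 8 B cell and all 7 granulocyte markers were below log2 5 in each array. Of 9 macrophage and monocyte markers, 1 to 4 reached log2 5 in an array. Their sums were log2 7.67 to 9.94 in WT and 8.71 to 10.57 in Runx3-/- arrays in IL-2. In IL-15 the sums were 8.79 to 9.43 and 7.89 to 8.94. The part of these markers in the results was not tested.

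Markers of other cells differed between the genotypes. The summed level of 10 T cell markers was log2 10.7 to 11.1 in WT and 12.2 to 12.3 in Runx3-/- arrays in IL-2, with Cd4, Cd8a, Cd8b1, Cd5 and Cd6 below log2 5 in each array; in IL-15 it was 11.5 to 12.1 against 12.3. The sum of 7 mast cell and basophil markers was 12.8 to 14.6 in WT and 10.9 to 11.6 in Runx3-/- arrays in IL-2, with Ms4a2, Fcer1a, Hdc and Gata2 below log2 5 throughout. Their part in the results was not tested. In bulk RNA of this kind, fewer cells of a type and less RNA per cell cannot be told apart.

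Promoter windows are shown for the 2 genes that passed the test between genotypes, Inpp5d and Pik3r1, and for the 2 genes whose windows hold a RUNX hexamer, Inpp4b and Pik3cd. Each window runs from 250 bases before to 50 bases after a RefSeq start in GRCm38.p6, is written on the strand of the gene, and has in capitals any match on either strand to the RUNX hexamer TGTGGT, to the variant TGCGGT, to the variant TGTGGC or to the variant TGCGGC. The Inpp5d window is chr1:87620062-87620361 on the plus strand, the Pik3r1 window of the upstream start chr13:101768168-101768467 on the minus strand, the Inpp4b window chr8:81342312-81342611 on the plus strand, and the Pik3cd window of the most downstream start chr4:149663267-149663566 on the minus strand.
Inpp5d: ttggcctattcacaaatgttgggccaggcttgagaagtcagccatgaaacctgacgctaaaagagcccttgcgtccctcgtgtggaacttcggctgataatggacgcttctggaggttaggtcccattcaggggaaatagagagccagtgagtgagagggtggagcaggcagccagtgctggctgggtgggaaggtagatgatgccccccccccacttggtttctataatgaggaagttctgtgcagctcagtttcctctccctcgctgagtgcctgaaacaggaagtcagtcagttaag
Pik3r1: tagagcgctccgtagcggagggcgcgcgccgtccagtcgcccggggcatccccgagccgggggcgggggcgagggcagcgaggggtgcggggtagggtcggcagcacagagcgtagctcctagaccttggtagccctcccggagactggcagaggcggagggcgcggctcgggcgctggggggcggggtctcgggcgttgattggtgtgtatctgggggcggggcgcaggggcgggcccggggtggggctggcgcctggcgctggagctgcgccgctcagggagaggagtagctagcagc
Inpp4b: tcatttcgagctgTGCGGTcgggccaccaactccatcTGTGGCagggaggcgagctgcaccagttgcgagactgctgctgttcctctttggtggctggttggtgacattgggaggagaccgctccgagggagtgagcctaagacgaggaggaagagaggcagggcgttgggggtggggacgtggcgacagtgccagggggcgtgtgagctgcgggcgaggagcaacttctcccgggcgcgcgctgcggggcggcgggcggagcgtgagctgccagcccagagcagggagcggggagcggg
Pik3cd: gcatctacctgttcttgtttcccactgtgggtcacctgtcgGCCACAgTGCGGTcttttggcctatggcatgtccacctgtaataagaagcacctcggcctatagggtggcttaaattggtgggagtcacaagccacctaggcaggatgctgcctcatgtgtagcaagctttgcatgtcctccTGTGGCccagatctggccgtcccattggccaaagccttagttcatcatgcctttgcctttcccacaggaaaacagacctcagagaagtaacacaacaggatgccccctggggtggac
In Inpp4b the matches began 237 and 213 bases before the start, and in the Pik3cd window shown they began 209, 202 and 67 bases before it. A further Pik3cd window held 1 match, 162 bases before its start, and the third held none. All 8 genes matched the RefSeq table, with 12 windows, of which 3 held a hexamer (25%), against 45.2% of all 32851 windows of the same length. The other windows of Pik3r1 and those of Pik3ca, Pik3cg, Pik3r5 and Pik3ip1 held none, which says only that these letters are not in these windows.

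Loss of Runx3 in IL-2 moved 2 of the 8 genes past the test, in opposite directions: Inpp5d, the gene of the PIP3 phosphatase SHIP1, rose 2.56-fold, and Pik3r1, the gene of the p85alpha regulatory subunit, fell 2.32-fold. A gene was called at an adjusted p under 0.05 (limma, Benjamini-Hochberg over 9391 genes) and at least 1.5-fold. Over all tested genes 19.7% were called in this comparison, 10.5% higher and 9.17% lower in Runx3-/- cells, so that the share of the 8 genes was near the background. The median difference was -0.89 over the 8 genes and 0.11 over all genes. WT and Runx3-/- arrays did not overlap in 3 of the 8 genes, and in 54.4% of all genes.

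The regulatory subunit p85alpha holds the p110 proteins stable and brings them to phosphorylated receptors. Pik3r1 stood at 10.26, 10.74 and 10.85 in the WT arrays and at 9.75, 9.28 and 9.17 in the Runx3-/- arrays in IL-2 (probe set 1438682_at). Each WT array was above each Runx3-/- array, and the difference was -1.21 ± 0.62 (SD, 3 pairs; adjusted p = 0.0379, limma). In IL-15 the same probe set was at 11.89 and 11.61 in WT and 11.96 and 12.24 in Runx3-/- arrays. There Runx3-/- was slightly above WT in both pairs, with a difference of 0.35 ± 0.40 (SD, 2 pairs; adjusted p = 0.795, limma). The other Pik3r1 probe sets gave another picture in IL-15. Probe set 1425514_at read 9.91, 10.11 and 10.46 in WT and 8.62, 8.42 and 8.07 in Runx3-/- arrays in IL-2, and 11.62 and 11.60 in WT and 10.77 and 10.79 in Runx3-/- arrays in IL-15. It was thus lower without Runx3 in all 5 pairs, by -1.79 ± 0.56 (SD, adjusted p over probe sets = 0.0124, limma) in IL-2 and -0.83 ± 0.02 (adjusted p = 0.417, limma) in IL-15. Probe set 1451737_at behaved alike, with -1.53 ± 0.10 (adjusted p = 0.0143, limma) in IL-2 and -0.81 ± 0.54 (adjusted p = 0.37, limma) in IL-15. The dim probe set 1425515_at, at 2.80 to 5.12, gave -0.36 and -0.10. For the mean of the genotype effects in IL-2 and IL-15, 1425514_at and 1451737_at were called lower. Their values were -1.31 (adjusted p over probe sets = 0.0166, limma) and -1.17 (0.0171), where 13.3% of all probe sets were called. 1438682_at and 1425515_at were not called for that mean, at -0.43 and -0.23. Of the 4 probe sets of Pik3r1, 3 therefore fell in IL-2, and in IL-15 they disagreed in sign. Which transcripts of Pik3r1 each probe set reads was not known here.

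SHIP1 takes a phosphate off PIP3 and so lowers the PIP3 pool. Inpp5d stood at 11.11, 11.07 and 11.64 in WT and at 12.79, 12.83 and 12.26 in Runx3-/- arrays in IL-2 (probe set 1418110_a_at). Every Runx3-/- array was above every WT array, and the difference was 1.35 ± 0.63 (SD, 3 pairs; adjusted p = 0.0255, limma). In IL-15 the levels were 12.28 and 12.14 in WT and 12.64 and 12.78 in Runx3-/- arrays, again without overlap but with a smaller difference of 0.50 ± 0.21 (SD, 2 pairs; adjusted p = 0.653, limma). By the brightest probe sets, only Inpp5d of the 8 was called for the mean of the genotype effects in IL-2 and IL-15. That mean was 0.93 (adjusted p = 0.0436, limma), where 17.2% of all genes were called. That call was lost with quantile normalization (adjusted p = 0.05001, limma), with every probe set tested on its own (0.0532), without the filter on low values (0.105), with the mean of its probe sets (0.102), and when any array but those of IL-2 pair 3 was left out (0.0955 to 0.217). A second, dimmer probe set, 1424195_a_at, lay between 5.91 and 6.83 in all 10 arrays and gave 0.41 ± 0.45 in IL-2 (adjusted p = 0.381, limma) and -0.03 ± 0.63 in IL-15, so that the rise rests on the bright probe set.

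**Figure D1:**
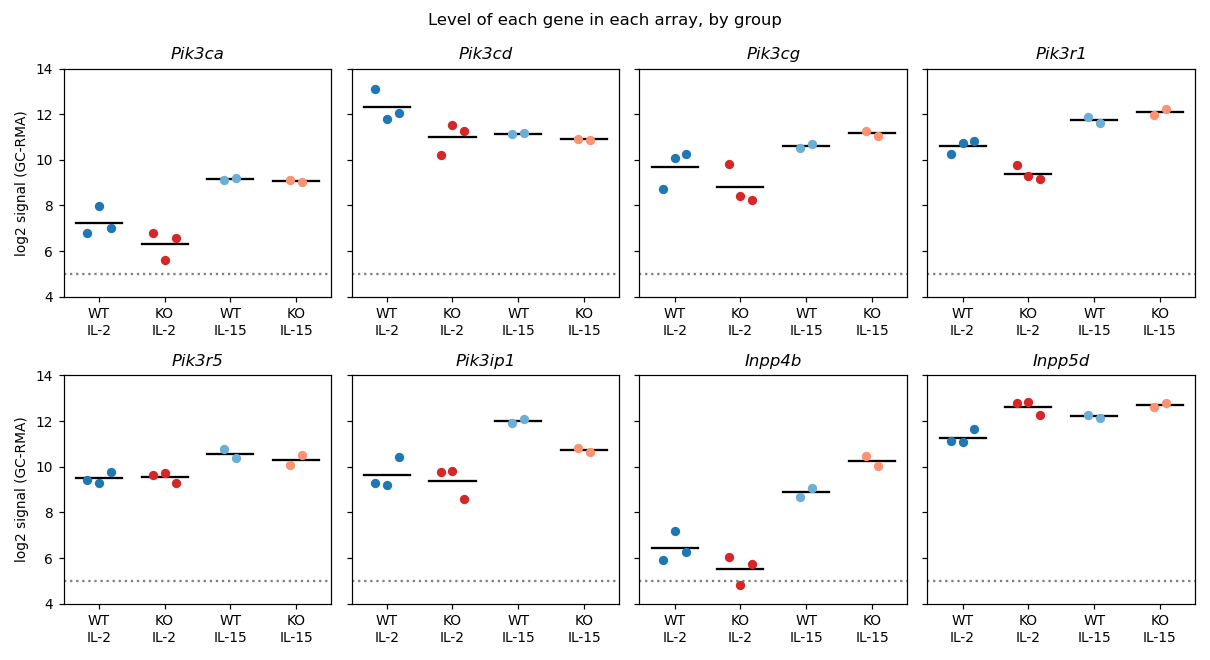
Level of the 8 genes in each array, as log2 GC-RMA signal, for WT and Runx3-/- (KO) arrays in IL-2 (3 each) and IL-15 (2 each); points are arrays, bars are group means and the dotted line is log2 5. Inpp5d, Pik3r1 and Pik3cd separate WT from KO arrays in IL-2, while Inpp4b rises most between the cytokines among these probe sets.

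Both calls in IL-2 were close to the threshold. The Pik3r1 call was lost when any 1 array was left out, with adjusted p (limma) of 0.0554 to 0.136, and the Inpp5d call when any was left out but those of pair 3, with 0.0512 to 0.132. Without the filter on low values, which raised the number of genes tested to 18194, the adjusted p was 0.1 for Pik3r1 and 0.0747 for Inpp5d. With the mean of both probe sets as the gene value, Inpp5d had a difference of 0.88 and an adjusted p of 0.0527 (limma).

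The other 6 genes did not pass the test in IL-2, and only in Pik3cd did all 3 pairs run the same way. The ubiquitous catalytic p110alpha is encoded by Pik3ca, which stood at 6.79, 7.96 and 7.01 in WT and 6.79, 5.62 and 6.57 in Runx3-/- arrays. Pair 1 was level and pair 2 far apart, so that the difference was -0.92 ± 1.25 (SD, 3 pairs; 95% interval -2.0 to 0.16; adjusted p = 0.193, limma). Over the 10 arrays, which include the difference between cytokines, the 5 tested probe sets of Pik3ca correlated at 0.96 to 0.99. Of these, 1453134_at read 6.72, 7.40 and 6.38 in WT and 5.33, 4.65 and 5.67 in Runx3-/- arrays and fell by 1.62 on the log2 scale (SD 1.04, adjusted p over probe sets = 0.0397, limma). The other 3 were not called in IL-2: 1460326_at gave -1.46 ± 1.30 (adjusted p = 0.0836, limma), 1429435_x_at -0.82 ± 0.69 (adjusted p = 0.125, limma) and 1429434_at -0.69 ± 1.07 (adjusted p = 0.292, limma). In IL-15 Pik3ca was at 9.13 and 9.21 in WT and 9.11 and 9.03 in Runx3-/- arrays, a difference of -0.10 ± 0.11. There 1460326_at, 1429435_x_at and 1429434_at pointed the other way in both pairs, with 0.36 ± 0.41, 0.36 ± 0.20 and 0.41 ± 0.33, and none of the Pik3ca probe sets was called.

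Pik3cd encodes p110delta, the main catalytic subunit of lymphocytes. Its brightest probe set, 1443798_at, stood at 13.09, 11.78 and 12.04 in WT and 10.20, 11.51 and 11.25 in Runx3-/- arrays in IL-2. The groups did not overlap, but pair 1 differed far more than pairs 2 and 3, and the difference of -1.32 ± 1.39 (SD, 3 pairs) had an adjusted p of 0.104 (limma) and an unadjusted p of 0.0325 (limma). Without pair 1 it was -0.53. The other tested probe sets did not share this change: 1453281_at gave -0.10 ± 0.49, 1422992_s_at -0.16 ± 0.34 and 1446770_at 0.55 ± 0.48. Over the 10 arrays 1443798_at correlated at 0.04 with 1453281_at and at -0.81 with 1446770_at, so that no single Pik3cd level describes the gene. In IL-15 the brightest probe set was at 11.12 and 11.18 in WT and 10.92 and 10.86 in Runx3-/- arrays, a difference of -0.26.

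Pik3cg encodes p110gamma, which is activated through G protein-coupled receptors. It stood at 8.73, 10.10 and 10.27 in WT and 9.80, 8.43 and 8.26 in Runx3-/- arrays in IL-2. Pair 1 ran against pairs 2 and 3, which leaves a difference within -2.25 to 0.50 (95% interval). In IL-15 it was at 10.52 and 10.71 in WT and 11.25 and 11.06 in Runx3-/- arrays, a difference of 0.54 ± 0.27 (SD, 2 pairs; adjusted p = 0.84, limma). The second probe set, 1422708_at, was lower without Runx3 in both cytokines, by -0.97 ± 0.82 (adjusted p = 0.112, limma) and -0.43 ± 0.45 (adjusted p = 0.786, limma).

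Pik3r5 encodes p101, a regulatory partner of p110gamma. Its levels were 9.42, 9.31 and 9.77 in WT and 9.63, 9.74 and 9.28 in Runx3-/- arrays in IL-2, and 10.80 and 10.36 in WT and 10.10 and 10.53 in Runx3-/- arrays in IL-15. The genotypes overlapped in both cytokines. The difference was 0.05 ± 0.48 in IL-2, and its 95% interval of -0.67 to 0.78 leaves room for changes of more than 1.5-fold either way; after centring each array on its median the value was -0.01.

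Pik3ip1 encodes a membrane protein that binds p110 and lowers PI3K activity. It stood at 9.28, 9.20 and 10.44 in WT and 9.75, 9.83 and 8.59 in Runx3-/- arrays in IL-2, where pair 3 ran against the others and the difference was -0.25 ± 1.39 (adjusted p = 0.756, limma). In IL-15 it was at 11.92 and 12.09 in WT and 10.84 and 10.66 in Runx3-/- arrays. Both Runx3-/- arrays were well below both WT arrays, by -1.26 ± 0.24 (SD, 2 pairs; 95% interval -2.69 to 0.18; adjusted p = 0.442, limma). The dimmer probe set 1439087_a_at gave -2.56 ± 2.34 there.

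Inpp4b encodes a phosphatase that acts on a product of SHIP1. Its levels in IL-2 were 5.92, 7.16 and 6.25 in WT and 6.06, 4.82 and 5.73 in Runx3-/- arrays, near the filter level of log2 5, and the groups overlapped. In IL-15 they were 8.67 and 9.07 in WT and 10.45 and 10.05 in Runx3-/- arrays, with both Runx3-/- arrays the higher. The IL-15 difference was 1.38 ± 0.57 (SD, 2 pairs; 95% interval -0.02 to 2.77; adjusted p = 0.378, limma). Its other probe set, 1441416_at, was below log2 5 in each array, as were 1440054_at of Pik3ca and 1458321_at and 1422991_at of Pik3cd.

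**Figure D2:**
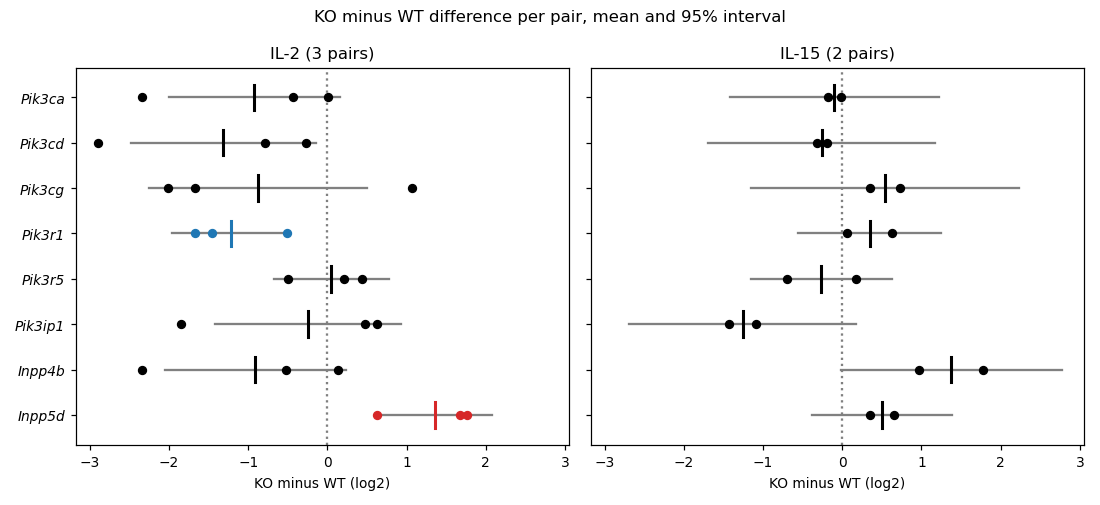
Runx3-/- (KO) minus WT log2 difference of each same-numbered pair (points), with the mean (vertical bar) and its 95% interval from the limma fit (grey line), for the 8 genes in IL-2 and IL-15; red marks a gene called higher, blue a gene called lower, black one not called. In IL-2 only Inpp5d and Pik3r1 were called, and in IL-15 none.

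None of the 8 genes was called in IL-15 by limma, and none had an unadjusted p under 0.05; over all genes 1.3% were called and 13.5% had such a p. The groups did not overlap in 7 of the 8 genes, against 64.6% of all genes. When the genotype effects of the cytokines were compared directly, no gene of the 9391 was called (0%), the lowest adjusted p (limma) was 0.0551, and 11.8% had an unadjusted p under 0.05. Among them were Pik3r1, whose effect in IL-15 minus that in IL-2 was 1.56 (adjusted p = 0.329, limma), and Inpp4b, with 2.28 (adjusted p = 0.339, limma).

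At the level of probe sets, 1 of the 21 tested rose and 4 fell in Runx3-/- cells in IL-2, against 16.5% called of all 17729 probe sets tested. In IL-15 no member probe set was called, against 0.474%.

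Arrays in IL-15 were then set against those in IL-2, within the limits of spread and Xist given above. Marker sums of some other cells differed between the cytokines as well, and the genotype in which they did so varied with the list. For 6 dendritic cell markers the sum was log2 7.21 to 8.73 in WT arrays in IL-2 and 9.48 to 10.1 with IL-15. In Runx3-/- arrays the cytokines overlapped, at 7.65 to 9.99 against 9.12 to 9.69. Flt3, Siglech, Xcr1 and Cd209a were below log2 5 throughout. The T cell sums given above did not overlap between cytokines in either genotype. In Runx3-/- arrays they were nearly level, at 12.20 to 12.27 in IL-2 and 12.29 to 12.30 in IL-15. Their part in the results was not tested. In WT cells 6 of the 8 genes were higher in IL-15 than in IL-2 and none was lower, where 48% of all genes were called, 29.4% higher and 18.7% lower. In Runx3-/- cells 6 of 8 were higher as well, where 46.1% were called, 23.6% higher and 22.5% lower. The median difference of the 8 genes was 1.11 in WT and 1.85 in Runx3-/- cells, beside 0.18 and -0.08 over all genes. WT arrays of the cytokines did not overlap in any of the 8 genes (70% of all genes), and Runx3-/- arrays did not in 6 (68.3%).

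By their brightest probe sets, Pik3ca, Pik3r1, Pik3r5, Pik3ip1 and Inpp4b were higher in IL-15 in both genotypes. Among the brightest probe sets Inpp4b moved furthest, 5.37-fold in WT (2.43 on the log2 scale, adjusted p = 0.00202, limma) and 26.2-fold in Runx3-/- cells (4.71). Its order was Runx3-/- in IL-2, WT in IL-2, WT in IL-15 and Runx3-/- in IL-15, in which only the IL-2 groups overlapped. Pik3ca was higher by 1.92 in WT and 2.74 in Runx3-/- cells, with its IL-15 groups 0.10 apart. Pik3r1 was higher by 1.14 and 2.70, and Runx3-/- cells, the lowest group in IL-2, were the highest in IL-15 by the brightest probe set. Pik3ip1 was higher by 2.37 and 1.36, and WT in IL-15 was its highest group. Its dimmer probe set 1439087_a_at had a WT mean of 4.90 in IL-2, below log2 5, and 9.02 in IL-15 (difference 4.12, adjusted p over probe sets = 0.00273, limma). In Runx3-/- cells that probe set was not called (1.03, adjusted p = 0.305, limma) and the cytokines overlapped. Pik3r5 was higher by 1.08 and 0.77. In Runx3-/- cells the calls of Pik3ip1 and Pik3r5 were lost without replicate 3 of the IL-2 arrays (adjusted p = 0.0709 and 0.0614, limma) or replicate 2 of the IL-15 arrays (0.099 and 0.17), and that of Pik3ip1 also without replicate 1 of the IL-15 arrays (0.137).

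The remaining 3 genes were not called in both genotypes. Pik3cg was higher in IL-15 by 2.33 in Runx3-/- cells (adjusted p = 0.00746, limma), while the WT value of 0.92 did not pass (adjusted p = 0.185, limma); its second probe set 1422708_at was called in WT cells too, at 1.96. Inpp5d was higher by 0.94 in WT cells (adjusted p = 0.00912, limma; 0.0604 without replicate 1 of WT in IL-15), while in Runx3-/- cells, already at 12.26 to 12.83 in IL-2, it was 0.08 apart. Pik3cd was the only one of the 8 with a lower WT level in IL-15, by -1.15 (adjusted p = 0.0589, limma), and in Runx3-/- cells its value was -0.09, where its probe set 1446770_at was called higher, at 0.74. These contrasts between genotypes are those of the direct comparison of effects above, in which none of these genes was called. Of the 21 probe sets, 15 were higher and none was lower in IL-15, in WT (49.6% of all probe sets called) and in Runx3-/- cells (47%).

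**Figure D3:**
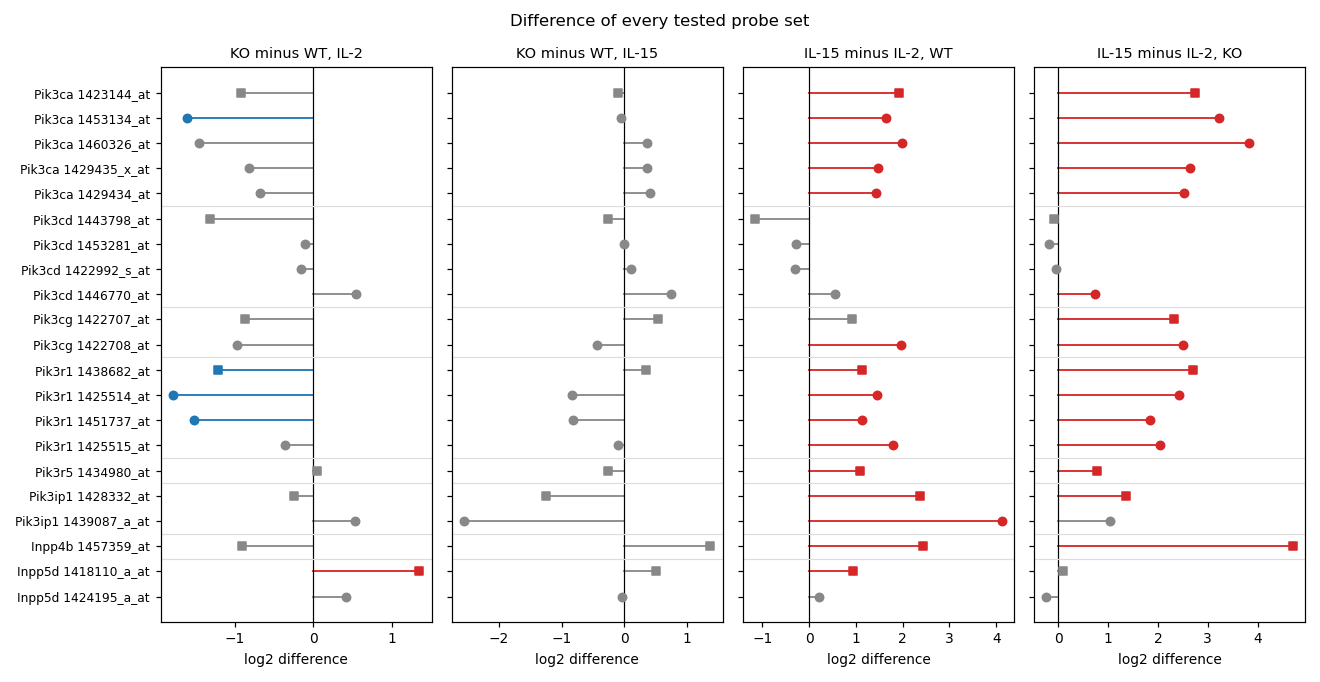
Log2 difference of each of the 21 tested probe sets in 4 comparisons; squares are the probe sets used as gene values, red and blue mark those called higher and lower (adjusted over 17729 probe sets), grey those not called. The Pik3ca and Pik3r1 probe sets run together between cytokines, while those of Pik3cd point in different directions.

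Across the 10 arrays, Pik3ca, Pik3cg, Pik3r1 and Inpp4b had the closest profiles among the 8 genes, with Pearson correlations of 0.88 to 0.96, and Pik3r5 and Pik3ip1 correlated at 0.91. Pik3cd and Inpp5d ran in opposite directions, at -0.80. These values are a description over arrays in mirrored pairs that share the cytokine difference. Among all tested genes the profile closest to that of Pik3cg was that of Inpp1, an inositol phosphate phosphatase, at 0.99, followed by Klf9 and Ube3c. The closest to Pik3ca were Opa1, Rbm27 and Mib1, to Pik3r1 Ik, Rsbn1 and Zfp407, and to Inpp4b Suz12, Zkscan8 and Azi2. For Inpp5d they were Cd151, Sh2b3 and Dexi, for Pik3cd Srr, Slc24a3 and Cacng7, for Pik3r5 Ypel1, Grk5 and Zkscan6, and for Pik3ip1 Ppp3cc, Sbsn and Smarcal1.

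Genes whose products work with or beside these 8 were read from lists. These lists were chosen with earlier results of these data known, so their counts are a description and not a test. Of 6 other PI3K subunit genes tested, 1 rose and 2 fell in Runx3-/- cells in IL-2, beside 10.5% of all genes higher and 9.17% lower, with a median difference of -0.36 beside 0.11 over all genes. These shares and this median of all genes hold for each list in IL-2 below. Pik3r2, the gene of p85beta, the close relative of p85alpha, rose by 2.72 ± 0.96 (SD, 3 pairs; adjusted p = 0.00908, limma), from a mean of 5.84 to 8.55, while Pik3r1 fell. Pik3r6, the gene of the other p110gamma partner p84, fell by 2.30 on the log2 scale (SD 1.09, adjusted p = 0.0253, limma), and both of its probe sets were called, while Pik3r5 stayed at a difference of 0.05. Pik3cb, the gene of p110beta, fell by 1.69 (SD 1.10, adjusted p = 0.0325, limma).

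Of 23 other phosphoinositide phosphatase genes, 1 rose and 1 fell in IL-2 (19.7% of all genes called), with a median of 0.34. Inpp4a, the close relative of Inpp4b, rose by 3.26 ± 1.01 (SD, 3 pairs; adjusted p = 0.00467, limma), from 5.96 to 9.21. Sacm1l, the gene of a phosphatase of the endoplasmic reticulum, fell by 1.30 (SD 0.59, adjusted p = 0.0254, limma). Inppl1, the gene of SHIP2, had a difference of 0.69 (adjusted p = 0.202, limma). In IL-15 none of these subunit and phosphatase genes was called, with 1.96 for Pik3r2, -2.45 for Pik3r6, -0.95 for Pik3cb and 1.07 for Inpp4a.

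Of 11 phosphoinositide lipid kinase genes, Pip5k1c rose by 1.66 while Pip4k2a and Pi4k2b fell by 1.23 and 1.22 on the log2 scale in IL-2. Of 12 adaptors of PI3K and docking proteins of SHIP1, only Cblb, the gene of a ubiquitin ligase that restrains lymphocyte activation, was called, and it fell by 1.71. Hcst, the gene of DAP10, which couples NKG2D to PI3K, had a difference of 0.67 that did not pass. Of 22 genes of the AKT and mTOR pathway, Eif4ebp1, whose protein holds back translation until mTOR phosphorylates it, was the only one called and fell by 1.68.

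FOXO factors are held out of the nucleus by AKT. Of 8 FOXO factors and FOXO target genes of lymphocytes, 4 rose in IL-2 (10.5% of all genes) and none fell. Their median difference was 1.23 beside 0.11 over all genes. This list too was chosen with earlier results of these data known, and an effect on the pathway was not tested. Foxo3 rose by 1.36 and the cell cycle inhibitor Cdkn1b by 1.15. In IL-2 each WT array was below log2 5 for Klf2 and Il7r, which passed the filter through the other groups. Against that level Klf2, a regulator of lymphocyte trafficking, was at least 6.25-fold higher in IL-2. Il7r, the interleukin-7 receptor alpha chain, was at least 1.32-fold higher. In IL-15 none of the 8 was called between the genotypes (1.3% of all genes); 4 had a difference above 0, and the values ran from -1.84 to 3.35 with a median of 0.18. Between the cytokines all 8 were called higher in IL-15 than in IL-2 in WT cells (29.4% of all genes), and 5 of them in Runx3-/- cells (23.6%).

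Of 22 genes whose proteins bind PIP3 or act downstream of it, 8 rose and 4 fell in IL-2, beside 10.5% of all genes higher and 9.17% lower, with a median difference of 0.30 beside 0.11. The guanine nucleotide exchange factor genes Vav2 (2.68), Cyth1 (2.26) and Tiam1 rose and Vav3 fell by 1.81, so that 2 members of the VAV family moved in opposite directions. Vav2 and Tiam1 were also the only genes of these lists that rose in IL-15, where 1.3% of all genes were called. Vav2 rose there by 2.47 (adjusted p = 0.0371, limma). Tiam1 was below log2 5 in WT cells, so that its place in these counts rests on the signal of the Runx3-/- arrays. Against that level it was at least 2.10-fold higher in IL-2 and 2.53-fold higher in IL-15.

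**Figure D4:**
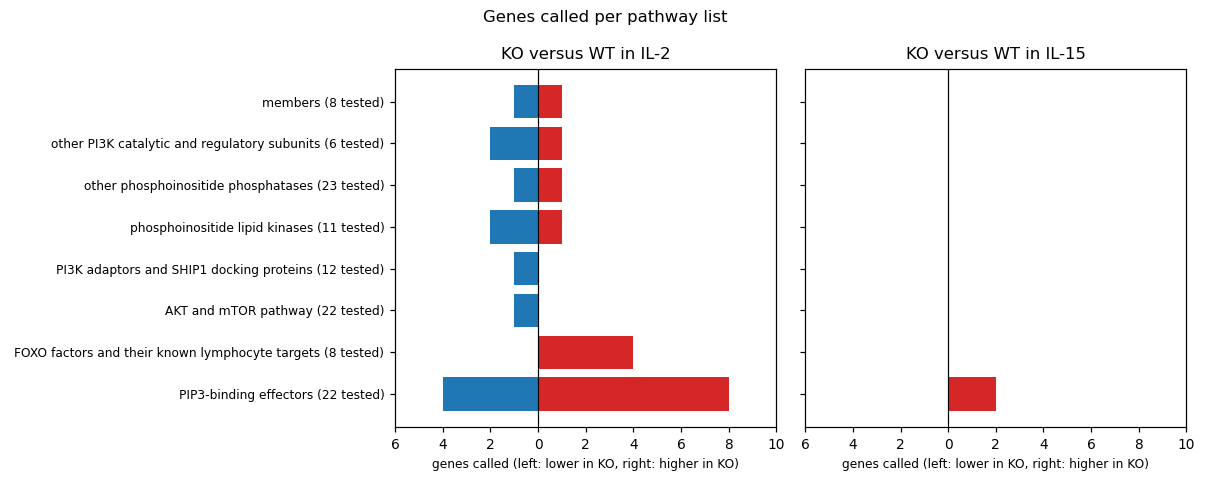
Number of genes called higher (right, red) and lower (left, blue) in Runx3-/- (KO) than in WT cells, for the 8 genes and 7 lists of partner and pathway genes, in IL-2 and IL-15, with the number tested beside each list. The list of PIP3-binding effectors has 8 higher and 4 lower in IL-2 and 2 higher in IL-15, and the other lists have none in IL-15.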

How the data were processed

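Affymetrix mouse expression arrays of 10 samples of cultured splenic NKC were used, from 3 WT and 3 Runx3-/- in IL-2 and 2 of each in IL-15. The deposited values were log2 signals that the authors made by GC-RMA in Partek Genomics Suite; versions are not given in the sources used here. Pair differences had been removed before deposit, which leaves same-numbered WT and Runx3-/- deviations as mirror images, so the replicate number was kept as a block in the genotype fits; fits of IL-15 against IL-2 had no block. Of 45101 probe sets, 34958 had 1 gene symbol, 932 several and 9211 none in the platform annotation, and 34754 matched RefSeq (GRCm38.p6) by gene identifier. The probe set of highest mean stood for a gene. Tests used limma 3.58.1 in R 4.3.3 (lmFit and eBayes) with Benjamini-Hochberg adjustment over all genes tested; the code was tested on simulated data. The number of arrays limits the precision; medians were 3.20 to 3.37. Where a group mean was below log2 5 a fold is given against that level.

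Named were all members with every probe set, at most 4 called genes a list and genotype comparison, a few relatives of the members, and the 3 closest profiles. The members and lists were chosen with earlier results of these data known. Alternatives changed the block, the filter, the scaling, the probe set rule, the variance model and the threshold, and left out each array.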

Additional observations from a re-analysis of the deposited data

Results flagged for a closer look

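Pik3r1 is listed because its 3 pairs in IL-2 all had less signal without Runx3 while its 2 pairs in IL-15 both had more, a difference between the genotype effects of 1.56. The test of that difference gave an adjusted p of 0.329 (limma), and the probe sets 1425514_at and 1451737_at of Pik3r1 did not share the sign in IL-15.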

How the results depend on the processing

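The values here are counts of the 8 genes called, or log2 differences. In IL-2 the 2 calls became 0 without the filter on low values and 1 with the mean of all probe sets of a gene, and 0 to 1 when an array was left out. For the mean genotype effect the 1 call became 0 without the filter, with quantile normalization and with every probe set tested on its own, and 0 to 1 when an array was left out. With every probe set tested on its own, only the brightest of each gene entered this count. Among the others, 1425514_at and 1451737_at of Pik3r1 were called lower for the mean effect. For the difference between the genotype effects the count of 0 became 2 without the replicate block that pairs the arrays, and 2 at the study's threshold of an unadjusted p under 0.05; without the block the IL-2 count was 3, and all genes called there rose from 1851 to 3803. The number of calls between IL-15 and IL-2 was 4 to 7 under all alternatives.

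Signs turned for Pik3r5 in IL-2 after median centring (-0.012) and quantile normalization (-0.032), and for Inpp5d between cytokines in Runx3-/- cells after centring (-0.035) and with the mean of probe sets (-0.079). With that mean they also turned for Pik3ip1 in IL-2 (0.14), for Pik3ca (0.15), Pik3cd (0.15) and Pik3r1 (-0.35) in IL-15, and for Pik3cd between cytokines in Runx3-/- cells (0.10). Leaving out arrays gave -0.14 to 0.32 for Pik3r5 and -0.69 to 0.55 for Pik3ip1 in IL-2, -0.70 to 0.17 for Pik3r5 in IL-15, and, between cytokines in Runx3-/- cells, -0.49 to 0.17 for Pik3cd and -0.10 to 0.19 for Inpp5d. The cause was not tested.

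Over all genes, leaving out an array gave 537 to 1525 calls in IL-2 and 0 to 95 in IL-15, and the latter count was 0 without the filter. Without the filter the IL-2 count was 842, against 1851, and that of the mean effect 642, against 1613. Without the block the counts were 1321 in IL-15, 2889 for the mean effect and 1157 for the difference of effects, and at the study's threshold they were 3391 in IL-2, 1269 in IL-15, 2794 and 1106. With the mean of probe sets 44 genes were called in IL-15, against 122. For the mean effect, leaving out an array gave 370 to 1507 calls. In WT cells the calls between cytokines were 2758 higher and 1754 lower as deposited, 2241 and 2286 after centring, and 2133 and 2481 after quantile normalization, as the median difference went from 0.18 to -0.023 and -0.054. In IL-15 the 43 genes called higher and 79 lower without Runx3 became 41 and 46 after quantile normalization. With 2 or 3 pairs a group, changes such as that of Inpp4b in IL-15 were not resolved.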
